A study of Homo sapiens with 4 samples.

Results

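The genes described here are 10 chemokines and cytokines that tumour cells of epithelial origin can make, chosen by symbol: CXCL1, CXCL2, CXCL3, CXCL5, CXCL10, CCL20, IL6, IL1A, IL1B and LIF. They and the gene lists below were chosen with earlier results of these data known. Of these 10 genes, 9 have a row among the 26726 genes of the deposited tables and all 9 had enough counts to be tested. The expression of CXCL1 was not analysed here. The RNA came from HN12 cells, an established head and neck squamous cell carcinoma (HNSCC) line grown in medium with serum, and no cytokine or drug treatment is labelled. Parental cells (WT, 2 libraries) were compared with cells in which ATAD3A, a gene for a mitochondrial membrane ATPase, had been disrupted by CRISPR/Cas9 (KO, 2 libraries). Each library came from its own culture according to the study's methods. Knockout cells had been grown as clones, and the sources used here do not say from which clone the KO RNA was taken, so the effect of the knockout and differences between clones cannot be told apart.

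Chemokines are small secreted proteins that attract leukocytes along a gradient. CXCL1, CXCL2, CXCL3 and CXCL5 act on the receptor CXCR2 and draw neutrophils, CXCL10 acts on CXCR3 and draws activated T cells, and CCL20 acts on CCR6. IL-1α and IL-1β, the products of IL1A and IL1B, signal through the same receptor, IL1R1, which activates NF-kB and MAP kinase pathways. IL-6 and LIF bind their own receptors, IL6R and LIFR, and share the signalling subunit gp130, encoded by IL6ST, which activates STAT3. Most of these genes are known targets of the transcription factor NF-kB, and in squamous carcinoma cells they are made by the tumour cells themselves.

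The libraries held between 13569971 and 18943547 counts on genes. The targeted gene, ATAD3A, held 702 and 492 counts in the KO libraries and 1802 and 1471 counts in the WT libraries, or -1.70 on the log2 scale with a standard error of 0.0907 (adjusted p = 1.53e-17 by the quasi-likelihood test of edgeR). The cells carried the marks of epithelium. The 10 epithelial markers checked summed to 3434 and 3358 RPKM (reads scaled to gene length and library size) in KO and to 2075 and 2062 RPKM in WT. Among the 10, the largest changes were in KRT5, a basal keratin, at 945 RPKM in KO and 160 RPKM in WT. Its partner KRT14 followed, at 406 and 93.0 RPKM. In WT the largest part of the sum was KRT8, at 560 RPKM, against 684 RPKM in KO. Of the 10 markers 6 were called higher and 3, EPCAM (log2 fold change -0.34), CDH1 (-0.24) and TP63 (-0.28), lower. Among all genes tested, 20.4% were called higher and 19.1% lower, at an adjusted p under 0.05 (edgeR). The part of the marker differences in the results below was not tested. The sum of 8 leukocyte markers was between 1.82 and 3.38 RPKM in every library, with 5 of the 8 at 10 counts or fewer throughout. The sum of 8 fibroblast and endothelial markers was between 2.11 and 3.0 RPKM. In bulk RNA, fewer cells making a transcript and less of it per cell cannot be told apart.

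The promoter windows of 5 of the genes that carry the same short NF-kB letters are shown. Of these 5, CCL20 was called lower in KO cells, IL6 and CXCL10 were called higher, and CXCL2 and CXCL3 were not called. Each line runs 5′ to 3′ from 250 bases before to 50 bases after the RefSeq start site (GRCh38.p14), and capitals mark matches to GGNNNTTCC on either strand.
CXCL2, chr4:74099146-74099445, minus strand: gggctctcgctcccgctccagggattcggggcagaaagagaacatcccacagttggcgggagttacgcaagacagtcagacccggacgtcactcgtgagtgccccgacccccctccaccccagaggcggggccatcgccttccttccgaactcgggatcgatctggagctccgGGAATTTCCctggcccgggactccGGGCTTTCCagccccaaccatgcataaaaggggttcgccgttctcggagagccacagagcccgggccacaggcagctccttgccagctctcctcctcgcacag
CXCL3, chr4:74038640-74038939, minus strand: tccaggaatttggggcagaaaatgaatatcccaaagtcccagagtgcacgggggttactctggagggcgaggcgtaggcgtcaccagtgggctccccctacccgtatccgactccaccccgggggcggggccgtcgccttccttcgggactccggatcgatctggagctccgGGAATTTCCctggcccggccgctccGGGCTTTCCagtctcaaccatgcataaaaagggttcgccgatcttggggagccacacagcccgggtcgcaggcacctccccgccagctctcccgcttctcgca
CCL20, chr2:227813592-227813891, plus strand: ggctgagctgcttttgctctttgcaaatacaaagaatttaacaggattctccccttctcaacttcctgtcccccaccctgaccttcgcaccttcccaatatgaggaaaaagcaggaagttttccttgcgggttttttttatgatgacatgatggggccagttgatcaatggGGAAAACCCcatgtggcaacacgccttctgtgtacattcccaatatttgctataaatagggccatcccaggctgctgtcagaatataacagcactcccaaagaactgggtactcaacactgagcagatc
IL6, chr7:22726950-22727249, plus strand: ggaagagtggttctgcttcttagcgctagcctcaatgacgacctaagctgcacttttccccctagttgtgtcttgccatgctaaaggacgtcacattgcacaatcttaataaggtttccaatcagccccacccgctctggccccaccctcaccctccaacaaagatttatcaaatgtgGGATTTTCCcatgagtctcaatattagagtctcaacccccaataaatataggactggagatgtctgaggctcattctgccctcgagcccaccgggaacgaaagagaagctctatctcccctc
CXCL10, chr4:76023448-76023747, minus strand: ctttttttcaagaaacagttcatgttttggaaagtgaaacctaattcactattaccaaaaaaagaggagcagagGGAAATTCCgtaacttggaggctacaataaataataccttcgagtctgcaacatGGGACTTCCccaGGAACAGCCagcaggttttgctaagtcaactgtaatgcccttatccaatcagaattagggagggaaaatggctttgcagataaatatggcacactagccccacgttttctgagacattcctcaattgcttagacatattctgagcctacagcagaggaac

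The windows of CXCL2 and CXCL3 read almost alike around the capitals, and 73.7% of their aligned positions were identical. The window of CXCL1 was closer to that of CXCL3, with 82.5% of positions identical, than to that of CXCL2, with 69.8%. By comparison CXCL2 and CXCL5 shared 50.1%, and CXCL3 and CXCL10 shared 43.1%. The set of RefSeq windows used here covered 9 of the 10 genes and held none for LIF. The NF-kB letters were found in CXCL1, CXCL2, CXCL3, CXCL5, CXCL10, CCL20 and IL6, and in neither IL1A nor IL1B within these 300 bases. Over all RefSeq windows, 20.1% hold these letters, and 23.5% of genes have a window with them, so a match by itself is common. The letters of each motif were shortened from known sites with these windows in view. The matches beside the shares of all windows therefore cannot test enrichment. In CXCL2, CXCL3 and CXCL5 the match reads GGAATTTCC, and it begins 77, 78 and 90 bases before the start site, respectively. IL6 carries GGATTTTCC 72 bases before its start. CCL20 has its match on the minus strand, beginning 79 bases before the start. CXCL10 holds 3 matches and is the gene among the 9 with the interferon-stimulated response element (ISRE) letters, which 3.57% of all windows hold.

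**Figure D1:**
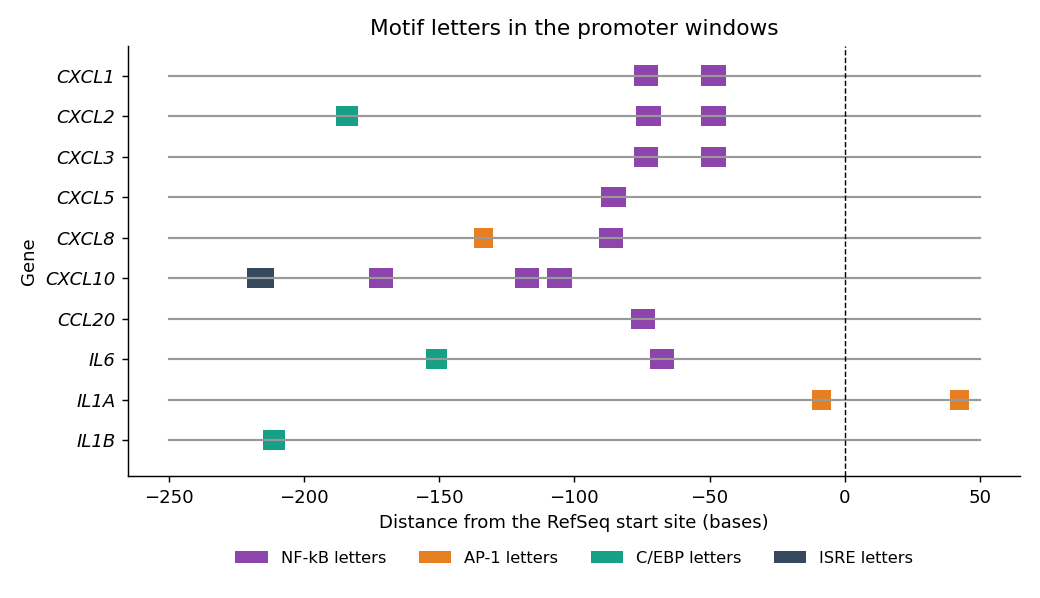
Position of motif letters in the promoter windows, with the distance from the RefSeq start site in bases on the horizontal axis and 1 gene per line. Coloured bars are matches to GGNNNTTCC (NF-kB), TGANTCA (AP-1), TTGCNNAA (C/EBP) and the ISRE on either strand. The NF-kB letters of CXCL1, CXCL2, CXCL3, CXCL5, CCL20 and IL6 lie within 90 bases before the start, and the first of the pair of IL1A windows has AP-1 letters on either side of its start.

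The AP-1 letters TGANTCA occurred at 2 places in the first IL1A window, beginning 12 bases before and 39 bases after the start, and 7.71% of all windows hold them. C/EBP letters, TTGCNNAA, were found in IL6, IL1B and CXCL2, against 10.5% of all windows. No match of one motif overlapped a match of another in these windows. These matches describe the letters and not binding.

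Expression levels of the 9 genes spanned a wide range. Compared per length in RPKM, IL1A was the highest, at 317 ± 4.93 RPKM (SD, n = 2) in WT, followed by IL1B at 257 ± 1.81 RPKM (SD, n = 2). Together the IL-1 genes made up between 85.5% and 86.5% of the summed RPKM of the 9 genes in every library. CXCL5 came next at 38.7 ± 0.260 RPKM (SD, n = 2), then CXCL2 at 25.1 ± 1.41 RPKM (SD, n = 2) and LIF at 16.8 ± 1.75 RPKM (SD, n = 2). CXCL3 and CCL20 were near each other in WT, at 4.99 ± 0.814 and 4.90 ± 1.10 RPKM (SD, n = 2 each), and their libraries overlapped. IL6 was at 2.76 ± 0.186 RPKM (SD, n = 2) and CXCL10 lay at the bottom with 0.350 ± 0.140 RPKM (SD, n = 2). In KO cells IL6, at 5.69 ± 0.270 RPKM (SD, n = 2), stood above both CXCL3 and CCL20, and neighbours in the KO order did not overlap in any of the 8 steps.

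**Figure D2:**
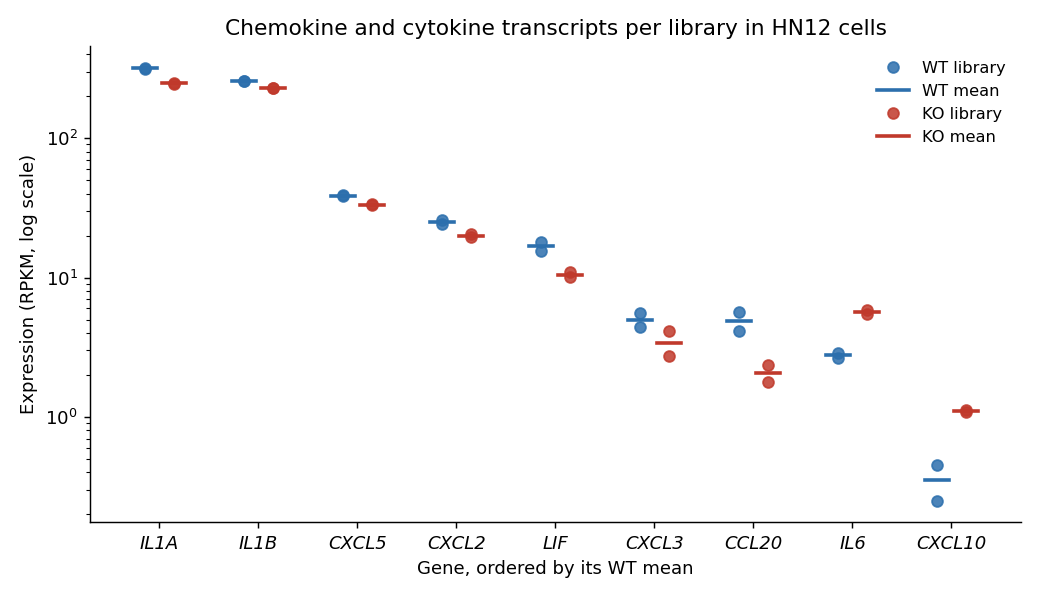
RPKM on a log axis for the 9 genes, ordered by their WT mean, with each library as a point and each group mean as a line. IL1A and IL1B lie between 227 and 321 RPKM, IL6 and CXCL10 have both KO points above both WT points, and the other 7 genes have both KO points below both WT points.

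Of the 9 genes, 3 fell and 2 rose in KO cells at an adjusted p under 0.05 over 15104 genes tested, and 4 did not pass. LIF, CCL20 and IL1A fell, while IL6 and CXCL10 rose. Across all genes tested 19.1% were lower and 20.4% were higher at this threshold, 39.5% in either direction. Of all calls, 48.5% were lower, and with library totals in place of TMM scaling 59% were lower. The median log2 fold change of the 9 genes was -0.26, against -0.0042 for all genes tested. In 7 of the 9 both KO libraries lay below both WT libraries and in 2 both lay above, where 34.0% and 34.1% of all genes did so, or 68.1% without overlap in either direction. The limits on unadjusted p and fold in the study's methods were applied to the edgeR values, and not to DESeq's nbinomTest, which the study used. By these limits 3 genes were again lower and 2 higher, beside 12.2% and 17.0% of all genes, 29.2% in either direction. CXCL3 entered that count in place of IL1A, whose fold of 0.819 was above the lower limit of 0.75.

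**Figure D3:**
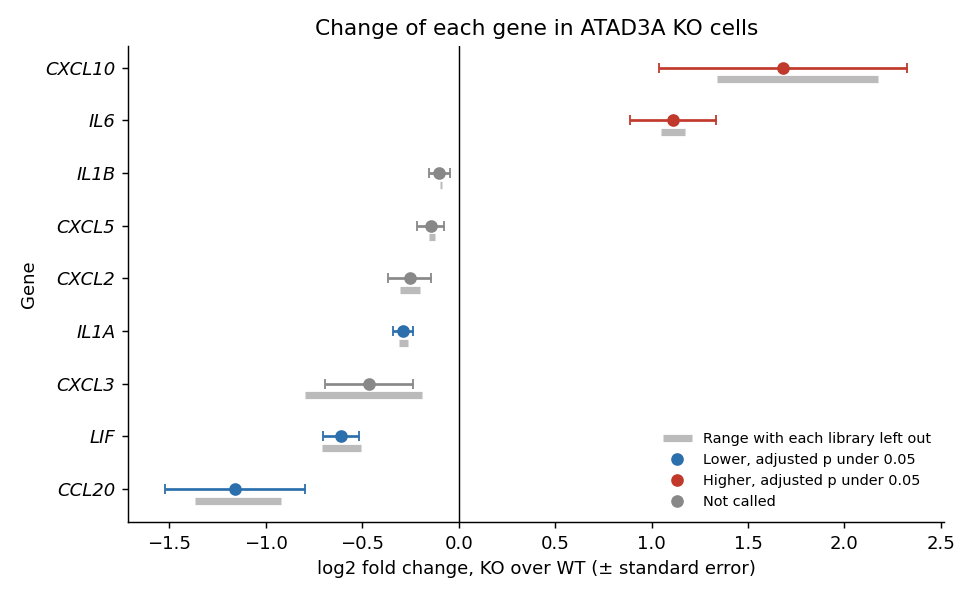
Log2 fold change of each gene, KO over WT, as a point with its standard error, with a grey bar for the range obtained when each library was left out in turn. CCL20, LIF and IL1A are lower and IL6 and CXCL10 higher at an adjusted p under 0.05, and no grey bar crosses zero.

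IL6 encodes the main cytokine of the acute-phase response. Its counts were 170 and 141 in the KO libraries and 61 and 60 in the WT libraries. Scaled to library size with TMM factors (CPM) these were 9.21 and 8.58 in KO and 3.93 and 4.31 in WT. Both KO libraries were therefore above both WT libraries, by 2.16-fold on average (log2 fold change 1.11, standard error 0.223, adjusted p = 0.000111, edgeR). The call was the same under every alternative test run, with values between 0.83 and 1.17. IL6 shares its locus with STEAP1B on the opposite strand, which also rose, from 20 and 26 counts in WT to 84 and 75 in KO (log2 fold change 1.53, adjusted p = 0.000515, edgeR). The annotated STEAP1B transcripts share no stretch of 50 nt with the longest IL6 transcript, whereas 22.4% of its stretches occur in AC073072.1, an antisense gene that held 9, 1, 8 and 1 counts in KO replicates 1 and 2 and WT replicates 1 and 2. Whether the counting used strand is not given in the sources used here.

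LIF, the other gp130 ligand on the list, moved the opposite way. It held 755 and 728 counts in KO and 937 and 971 in WT, or 40.9 and 44.3 CPM against 60.4 and 69.7 CPM. LIF was thus lower in both KO libraries, by 1.53-fold (log2 fold change -0.61, standard error 0.091, adjusted p = 1.09e-06, edgeR), and it passed under every alternative test run. On the opposite strand LIF overlaps LIF-AS1 and AC004264.1, and the latter held 5 and 17 counts in KO and 29 and 26 in WT. Of the 50-nt stretches of the longest LIF transcript, 4.34% occur in these antisense genes. Their part in the LIF counts was not tested. The RPKM ratio of IL6 to LIF was 0.585 and 0.503 in KO and 0.169 and 0.161 in WT. The ratios did not overlap, although with 2 libraries a group the exact permutation test cannot go below p = 0.333.

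The receptors of these ligands were measured in the same cells. Of 12 receptor genes listed, 7 were tested, of which 1 fell and 2 rose. Over all genes tested 19.1% were lower and 20.4% higher. The counts of this list and of the lists below stand beside these shares. Since the lists were chosen with earlier results of these data known, the counts are description and not a test. IL6R, the ligand-binding chain for IL-6, rose from 46.2 ± 5.71 to 64.6 ± 4.92 CPM (SD, n = 2 each), a log2 fold change of 0.48 (adjusted p = 6.27e-05, edgeR). LIFR rose from 30.6 ± 1.61 to 38.8 ± 2.75 CPM (SD, n = 2 each), a log2 fold change of 0.34 (adjusted p = 0.00896, edgeR), and did not pass with DESeq2 (adjusted p = 0.0728), with limma on RPKM (adjusted p = 0.247 and 0.252 with pseudocounts of 1 and 0.1), without KO replicate 2 (adjusted p = 0.067) or without WT replicate 2 (adjusted p = 0.111). ACKR3, a scavenging receptor, did not pass (0.24, adjusted p = 0.767). IL6ST, the shared gp130 subunit, was lower at 180 ± 8.13 CPM in KO against 221 ± 10.7 CPM in WT (SD, n = 2 each). Its log2 fold change was -0.29 (adjusted p = 0.00013, edgeR). After the correction for GC content and length it was 0.062, and the call was lost.

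CXCL10, which is induced by interferons, had the largest rise of the 9 genes and the fewest counts, 24 and 22 in KO and 8 and 4 in WT. Its levels were 1.30 and 1.34 CPM in KO against 0.516 and 0.287 CPM in WT. The KO libraries were close to each other and above both WT libraries (3.21-fold, log2 fold change 1.68, standard error 0.643, adjusted p = 0.0349, edgeR). At these counts the call did not hold with DESeq2 (adjusted p = 0.178) or without any of the 4 libraries in turn (adjusted p between 0.106 and 0.285). CXCR3, its receptor, held 1 count in KO replicate 1 and 0 in the other libraries.

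CCL20 attracts dendritic cells and lymphocytes that carry CCR6. It held 37 and 25 counts in KO and 52 and 64 counts in WT, or 2.0 and 1.52 CPM against 3.35 and 4.59 CPM. Both KO libraries were lower (2.23-fold, log2 fold change -1.16, standard error 0.363, adjusted p = 0.00984, edgeR). The difference did not pass with DESeq2 (adjusted p = 0.0744), without KO replicate 2 (log2 fold change -0.97, adjusted p = 0.0557) or without WT replicate 2 (-0.92, adjusted p = 0.151).

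IL1A and IL1B lie on the same strand of chromosome 2 and were the most abundant of the 9 transcripts. IL1A held 9833 and 8935 counts in KO and 10331 and 9038 in WT, which are 533 and 544 CPM against 666 and 649 CPM. The fall of IL1A was small and larger than the spread between libraries (1.22-fold, log2 fold change -0.29, standard error 0.0505, adjusted p = 1.52e-05, edgeR). After the correction for GC content and length it was -0.13 and still passed (adjusted p = 0.0141). IL1B was at 380 and 383 CPM in KO and at 408 and 410 CPM in WT. Its libraries did not overlap either, but the change of -0.10 on the log2 scale did not pass (adjusted p = 0.133, edgeR, with a standard error of 0.0525). With library totals in place of TMM scaling IL1B became -0.17 and passed (adjusted p = 0.00825). The RPKM ratio of IL1A to IL1B was 1.08 ± 0.0089 in KO and 1.23 ± 0.0279 in WT (SD, n = 2 each).

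IL1RN, the receptor antagonist, held 32 and 33 counts in KO and 11 and 9 in WT, a log2 fold change of 1.45 (adjusted p = 0.0318, edgeR) that did not pass with DESeq2 (adjusted p = 0.147) or without any of the 4 libraries (adjusted p between 0.0894 and 0.157). In RPKM its level was between 0.0604% and 0.213% of that of IL1A and IL1B together. The signalling receptor IL1R1 held 15 to 23 counts per library (log2 fold change -0.26, adjusted p = 0.753, edgeR), the decoy receptor IL1R2 held 8 to 37 counts (1.03, adjusted p = 0.15) and the accessory protein gene IL1RAP was at 76.3 ± 0.585 CPM in KO and 83.6 ± 6.24 CPM in WT (SD, n = 2 each; -0.13, adjusted p = 0.185). Of 11 genes tested for IL-1 processing and secretion, 7 did not pass, 4 rose and 0 fell by edgeR, with 0 lower at an unadjusted p under 0.05 and 0 with DESeq2. Those that rose were NLRP1, an inflammasome sensor (0.98), S100A13, which takes part in the export of IL-1α (0.94), CAPN1, a calpain (0.44), and GSDMD, the pore-forming gasdermin (0.40). The GC and length correction gave 5 higher and 2 lower genes in this list, with GSDMD at 0.15, which did not pass.

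The neutrophil chemokines CXCL5, CXCL3 and CXCL2 lie in 1 cluster on chromosome 4, on the minus strand in that order, with CXCL8 at its other end on the plus strand. CXCL5, which attracts neutrophils, was at 85.8 and 87.8 CPM in KO and 96.6 and 95.3 CPM in WT (log2 fold change -0.14, standard error 0.0708, adjusted p = 0.104, edgeR). The direction of CXCL5 turned after the GC and length correction, to 0.059 (adjusted p = 0.52). CXCL2 was at 24.2 and 25.7 CPM in KO and 28.7 and 30.9 CPM in WT (log2 fold change -0.26, standard error 0.114, adjusted p = 0.073, edgeR). CXCL3 was at 6.93 and 4.57 CPM in KO and 7.09 and 8.90 CPM in WT. Its change of -0.46 on the log2 scale (adjusted p = 0.103, edgeR, with a standard error of 0.227) depended on single libraries, being -0.80 (adjusted p = 0.0133) without KO replicate 1, -0.19 without KO replicate 2 and -0.30 without WT replicate 2. For these 3 genes the KO libraries were below the WT libraries, and the differences did not pass the threshold. CXCL2 shares 9.24% of its 50-nt stretches with CXCL1 or CXCL3, and CXCL3 shares 3.02% with CXCL2, so part of their counts depends on how shared reads were treated. Counted as a single feature, CXCL2 and CXCL3 were lower (log2 fold change -0.30, adjusted p = 0.0209, edgeR).

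CXCL8, which encodes interleukin-8 and acts on the same receptor CXCR2, differed from its neighbours in size. It held 560 and 464 counts in KO and 1010 and 952 in WT, or 30.3 and 28.2 CPM against 65.1 and 68.3 CPM. It fell by 2.28-fold (log2 fold change -1.19, standard error 0.0929, adjusted p = 5.92e-13, edgeR). The RPKM ratio of CXCL8 to CXCL5 was 0.526 and 0.479 in KO and 1.00 and 1.07 in WT, and these ratios did not overlap (exact permutation p = 0.333, the smallest possible). CXCR2 held 1 and 3 counts in KO and 6 and 7 in WT, below the filter on expression.

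**Figure D4:**
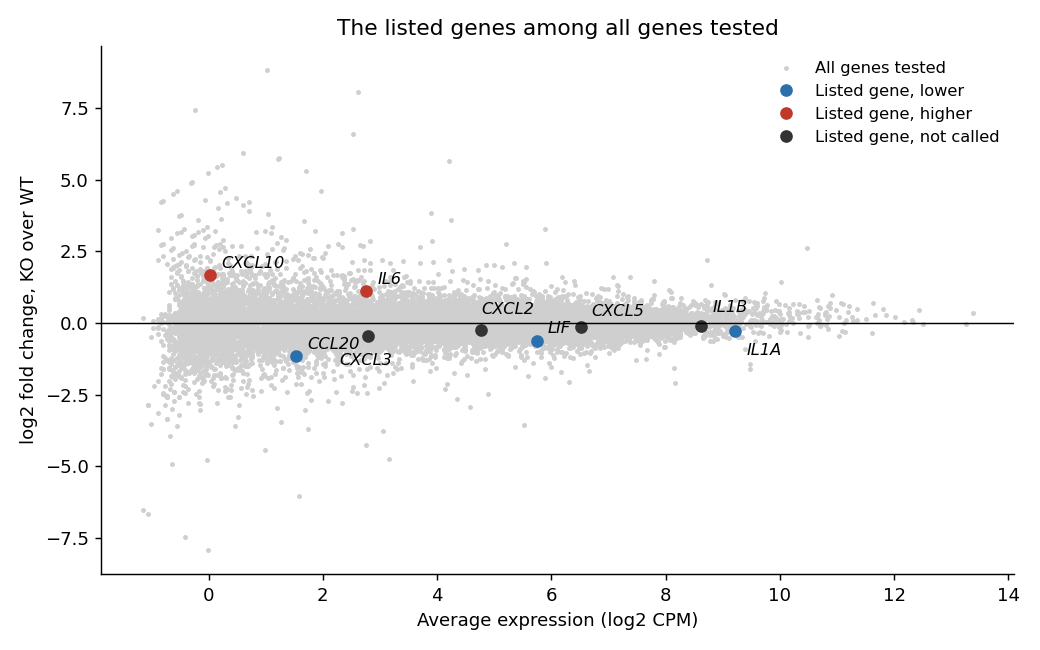
Average expression in log2 CPM against the log2 fold change, KO over WT, for all 15104 genes tested in grey, with the 9 genes marked by their call. The most abundant genes, IL1A and IL1B, lie close to zero change, and CXCL10, CCL20 and IL6, with larger changes, lie at the low end of expression.

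The remaining chemokines and cytokines were read against these genes. Among 30 other chemokines listed, 15 had a row and 7 were tested. CXCL8 and CXCL16, a membrane-bound chemokine (log2 fold change -0.27), fell, and CCL28, a mucosal epithelial chemokine (0.54), rose. CXCL16 did not pass with DESeq2 (adjusted p = 0.0746) or without either WT library (adjusted p = 0.108 and 0.055). Among 34 other cytokines, 19 were tested, of which 6 fell and 4 rose. Without WT replicate 1 the number that fell was 3, and the number that rose was 2 with DESeq2, with at least 10 counts in every library, without KO replicate 2 or without WT replicate 2. The largest changes were in IL24, a cytokine of the IL-10 family, which rose from 22 and 7 counts in WT to 209 and 132 in KO (log2 fold change 3.30, or 4.26 without WT replicate 1 and 2.77 without WT replicate 2), and in TNF, which fell from 132 and 134 to 28 and 18 (-2.78). TNFSF10, which encodes TRAIL (-1.16), and LTB, lymphotoxin β (-1.05), also fell, TNFSF10 not passing without WT replicate 1 (-0.93, adjusted p = 0.0697). IL11, a further gp130 cytokine, was at 13.4 ± 0.297 CPM in KO and 16.3 ± 0.277 CPM in WT (SD, n = 2 each; log2 fold change -0.28, adjusted p = 0.134, edgeR).

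Genes listed for the NF-kB, AP-1 and C/EBP pathways, which include targets as well as regulators, moved in both directions. Of 18 NF-kB subunits and feedback targets tested, 9 fell and 4 rose, with a median log2 fold change of -0.30. The number that rose was 2 with DESeq2 and without WT replicate 2. CD83 (-0.93), the apoptosis inhibitor BIRC3 (-0.90), the adhesion molecule ICAM1 (-0.76), NFKBIZ, a cofactor for IL6 transcription (-0.68), and the subunit REL (-0.65) fell most. REL was at -0.32 and did not pass without KO replicate 1 (adjusted p = 0.129). NFKBIA, the inhibitor IκBα, fell to 164 ± 1.59 from 202 ± 0.244 CPM (SD, n = 2 each), while TNFAIP3, the inhibitor A20, rose to 190 ± 4.97 from 136 ± 3.96 CPM (SD, n = 2 each). Of 12 AP-1, C/EBP and STAT3 pathway genes, 8 rose and 0 fell by edgeR, with a median of 0.64. None was lower at an unadjusted p under 0.05 or with DESeq2, and the GC and length correction gave 1 lower gene. JUNB (0.96), JUN (0.79), the gp130 feedback inhibitor SOCS3 (0.70) and CEBPB, a factor for IL6 (0.66), were among them. FOS had a value of 1.05 from 20 to 65 counts per library and did not pass with DESeq2 (adjusted p = 0.192) or without KO replicate 1 (0.69, adjusted p = 0.393), WT replicate 1 (adjusted p = 0.182) or WT replicate 2 (adjusted p = 0.0895).

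Many of these ligands have short-lived transcripts, and 10 regulators of cytokine mRNA decay and stability were listed. Of the 10, 3 rose, 4 fell and 3 did not pass, and 1 was lower after the GC and length correction. ZFP36L2 and ZFP36L1, which bind AU-rich elements, rose by 2.06-fold and 2.04-fold (log2 fold changes 1.04 and 1.03), whereas ZFP36 held 369 and 396 counts in KO and 355 and 251 in WT (log2 fold change 0.10, adjusted p = 0.598, edgeR), and its CPM values in the 2 groups overlapped. ZC3H12A, the nuclease Regnase-1 that degrades IL6 mRNA, fell to 91.3 ± 3.07 from 121 ± 1.21 CPM (SD, n = 2 each; -0.41). ZC3H12C (-0.56) and RC3H1, which encodes Roquin-1 (-0.39), fell as well, and after the GC and length correction they were at -0.20 and -0.032 and did not pass.

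**Figure D5:**
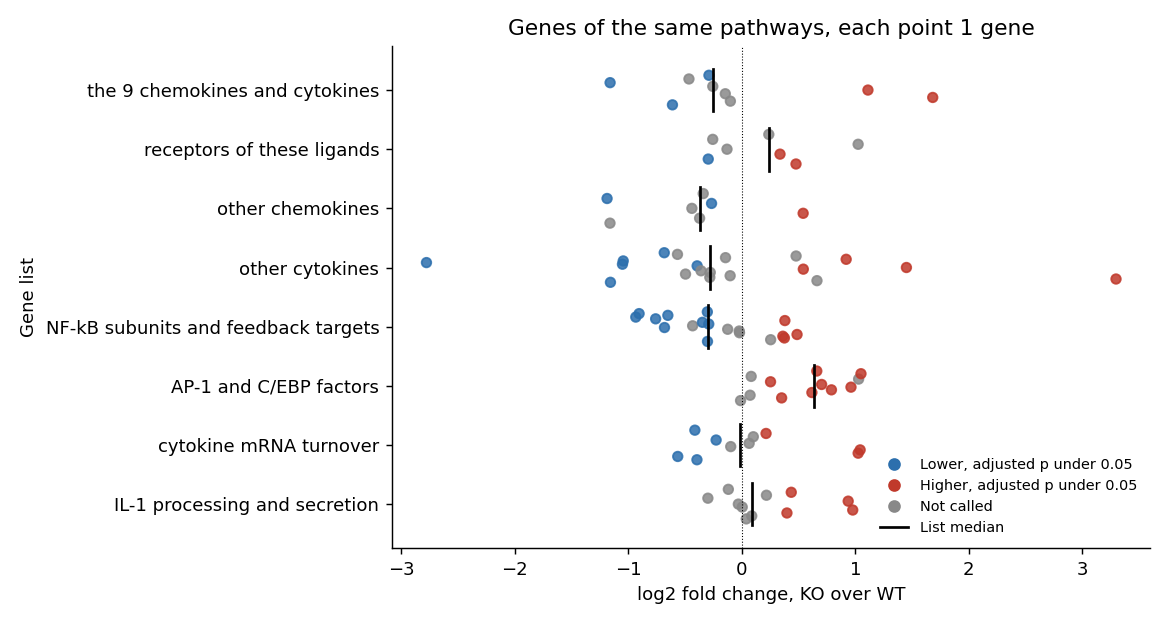
Log2 fold change, KO over WT, of each tested gene in 8 lists, coloured by its call, with a black line at the list median. The 9 chemokines and cytokines have a median of -0.26, the NF-kB list of -0.30 and the AP-1 and C/EBP list of 0.64.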

How the data were processed

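RNA sequencing of 4 HN12 libraries was analysed, grouped by the sample titles. The authors deposited raw counts per gene, and a table of RPKM values that equal the counts divided by gene length and library total within 1.8e-05%. The submitters' processing notes name CASAVA, STAR 2.5, HTSeq, edgeR 3.16.5, DESeq2 and the build hg19, without roles. Annotation and strand setting are not given in the sources used here. The study's methods name DESeq's nbinomTest.

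The genes and lists were chosen with earlier results of these data known. Counts were filtered with filterByExpr (15104 genes), scaled by TMM and compared with glmQLFit and glmQLFTest of edgeR 4.0.16 in R 4.3.3, with no replicate term, with Benjamini-Hochberg adjustment over all genes tested. The standard error is the log2 fold change divided by the root of the F statistic. A count of 3, the limit a count of 0 allows, is 0.162 to 0.215 CPM and covers counting error only. The edgeR, DESeq2 and limma tests were tried on simulated counts. Named genes are the listed genes, all tested receptors, up to 5 called genes a list with the largest changes, and genes with a named role. CXCR3, CXCR2, STEAP1B, AC073072.1, AC004264.1 and LIF-AS1 were named after their values were seen.

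Listed symbols were matched by Ensembl identifier or by the tables' symbols (CXCL8 is IL8 there, ACKR3 is CXCR7). Promoter windows are from RefSeq (GRCh38.p14) and transcripts from GENCODE release 29 (GRCh38), so no coordinates of the hg19 files are given. Motif letters were shortened from known sites with these windows in view. Alternatives were DESeq2 1.42.0, edgeR's exact test, other scalings and filters, a replicate block, limma 3.58.1 on log2(RPKM + 1) and log2(RPKM + 0.1), which understates changes of low genes, CXCL2 with CXCL3 as a single feature (CXCL1 was planned too), leaving out each library, and splines of GC content and length, added after seeing the data.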

Additional observations from a re-analysis of the deposited data

How the results depend on the processing

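The calls of IL6 and LIF held under every alternative run, and that of IL1A under all except the limits on unadjusted p and fold, where its fold of 0.819 was not past 0.75. The number of listed genes called lower was 3, and was 6 with library totals only, with limma on log2(RPKM + 1) and on log2(RPKM + 0.1), and with the GC and length correction. The number called higher was 2, and was 1 with DESeq2, with at least 10 counts in every library, where CXCL10 dropped out, and without each library in turn. With library totals only, CXCL2 (-0.32), CXCL5 (-0.21) and IL1B (-0.17) passed. On log2(RPKM + 1) they were at -0.31, -0.21 and -0.17, and on log2(RPKM + 0.1) at -0.32, -0.21 and -0.17, and passed. RPKM also uses library totals without TMM factors, so these settings share a scaling and are not independent alternatives. After the GC and length correction CXCL2 (-0.32), CXCL3 (-0.58) and IL1B (-0.12) passed and CXCL5 turned to 0.059. CXCL2 and CXCL3 summed passed at -0.30. With DESeq2, CXCL10 (1.71) and CCL20 (-1.16) did not pass. Without each library in turn, CXCL10 was between 1.34 and 2.17, CCL20 between -1.37 and -0.92, CXCL3 between -0.80 and -0.19, and listed genes called lower numbered 2 to 4. A lone library is then assumed to vary like the others. The cause of these differences was not tested.

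Over all genes, 2891 were lower, against 1881 with DESeq2 and 1847 by unadjusted p and fold. With library totals only, 3613 were lower and 2510 higher, against 3074 higher with TMM. The GC and length correction turned IL6ST (0.062), IL1RAP (0.074) and ZFP36 (-0.093), none of which then passed. Leaving out a library turned ACKR3 (-0.32 to 0.67) and ZFP36 (-0.059 to 0.29), neither of which passed in the full comparison. Of 39 related genes named or tested as receptors, 25 kept their call and direction throughout. Library totals moved the median of all genes to -0.074.

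With the replicate number as a block, 3 listed genes were lower and 2 higher, with IL6 at 1.11, LIF at -0.61 and IL1A at -0.29, and 2808 genes were lower and 3009 higher in all. Deviations of same-numbered libraries correlated at -0.0609 across 11059 genes. This value cannot show whether the cultures were prepared in pairs, which the labels do not say. CXCL10 and CCL20 had 4 to 64 counts per library, so counting error is largest for them among the 9 genes.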
